A study of Mus musculus with 24 samples.

Results

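The comparison described here is that of 3T9 cells carrying MycER WT with 3T9 cells carrying an empty vector (EV), both after 4 h in OHT. It was drawn from a table of 24 RNA-seq libraries in 8 groups of 3, by taking the 3 WT and the 3 EV libraries labelled 4 h, that is 6 of the 24. The other groups were EV and WT at 8 h, and the mutant forms HEA and RA of MycER at 4 h and 8 h. All 24 libraries entered the fit behind the p-values, unless stated otherwise. Genes were included where at least 3 of the 24 libraries reached 1 RPKM (reads scaled to gene length and library size), which left 12268 of 21671 genes. 3T9 is an immortalised line of mouse embryo fibroblasts, and the title of the series asks what non-specific and sequence-specific DNA binding each contribute to gene regulation by Myc. The EV group was infected with a vector that holds no MycER, and the WT group with one that holds the unmutated form. MycER joins Myc to the hormone-binding part of the oestrogen receptor, so that OHT (4-hydroxytamoxifen) switches the protein on. All groups received OHT, and no library without OHT was used here, so that OHT itself was common to both sides. The cells are described as infected, with no clone named, and nothing in the labels says whether libraries 1 to 3 of a group were grown separately. The p-values may therefore measure technical spread only.

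Myc is a transcription factor that works as a pair with Max and binds DNA, with a preference for the E-box motif CACGTG. The Mxd proteins, Mxi1 and Mnt also pair with Max and act at the same sites as repressors, so that they compete with Myc. In growing fibroblasts Myc is best known for raising genes of ribosome production, nucleotide synthesis and mitochondria, and for lowering genes of growth arrest.

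The 6 libraries held 9.82 to 11.9 M reads. EV replicate 2 and WT replicate 3 lay at the opposite ends of the first principal component (51.0% of the variance, scores of -29.0 and 36.9), and results that rest on them are given with and without them. Of the 15 fibroblast markers, 11 reached 1 RPKM in all 6 libraries and Lum was at 0 throughout; their summed level was 740 to 836 RPKM in EV and 739 to 772 in WT. Marker sets of epithelial, macrophage, endothelial and muscle cells summed to at most 13.5 RPKM in any library, with Epcam, Emr1, Tie1 and Myod1 among the genes at 0, and none of their tested members was called. Summed adipocyte markers were 8.16 to 11.8 RPKM in EV and 25.1 to 28.6 in WT, with Dgat2 and Cebpa called higher and Adipoq, Lep and Cidec at 0. None of the 15 tested nuclear and RNA quality transcripts was called.

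Esr1 encodes the oestrogen receptor, part of which MycER contains. It measured 0.385, 0.293 and 0.153 RPKM in the EV libraries and 12.1, 11.2 and 12.5 in the WT libraries. All 3 WT libraries thus carried the construct's sequence and no EV library came near them. Myc itself was at 53.2, 62.4 and 56.0 RPKM in EV and at 46.8, 46.9 and 29.0 in WT. It was lower in every WT library (log2 fold change -0.51 ± 0.17 SE, limma adjusted p = 0.0286), most so in WT replicate 3. The adjusted p was 0.223 without that library, 0.0984 without EV replicate 2 and 0.0572 without EV replicate 3, and reads of the resident gene and of the construct cannot be told apart.

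At an adjusted p under 0.05, 1429 genes were higher in WT and 1767 lower, which is 11.6% and 14.4% of those tested and 26.1% in all. Changes were small: the median log2 fold change was 0.40 among the higher and -0.52 among the lower genes, against -0.01 over all tested, and 66.7% of the calls were under 1.5-fold. At least 2-fold changes were found for 96 higher and 106 lower genes. The lower count depended on the processing: it was 64 without WT replicate 3, 196 without WT replicate 1, 64 with quantile normalisation, 70 and 188 at pseudocounts of 1 and 0.1, and 208 with voom. All 3 WT libraries lay above all 3 EV libraries in 1362 of the 1429 higher genes, and below them in 1650 of the 1767 lower genes. Such a gap was thus usual among called genes, and where it is given for a called gene below it adds no support to the call. Over all tested genes the groups were apart in this way for 16.1% (WT above) and 19.1% (WT below). There were 919 higher and 1121 lower genes without WT replicate 3, and 876 and 1158 without both end libraries. A fit of only the 6 libraries compared, with fewer degrees of freedom, gave 523 and 589. Higher genes made up 44.7% of the calls; centring on library medians moved this share to 57.3%, so which direction had more calls depends on the scaling.

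**Figure D1:**
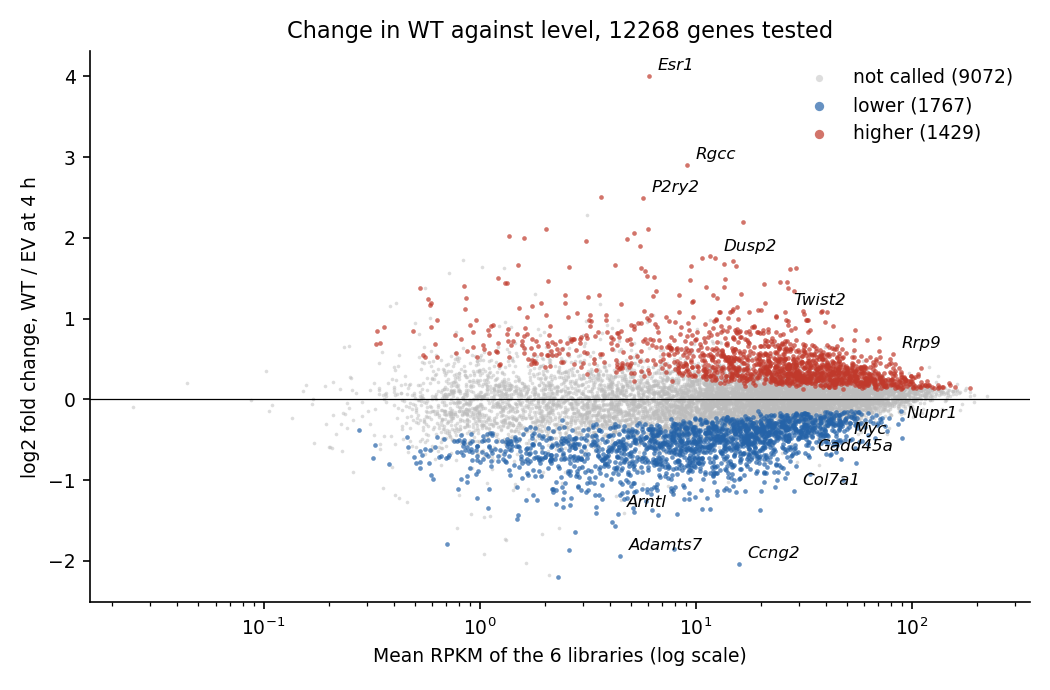
Log2 fold change of WT against EV at 4 h (vertical axis) against the mean RPKM of the 6 libraries (horizontal, log scale), with 1 point for each of the 12268 genes tested. Red points are the 1429 genes called higher, blue the 1767 called lower and grey the rest; no called gene of 50 RPKM or more reached a 2-fold change.

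Rises and falls were not spread evenly over expression levels. Among the 3018 genes with a mean of 2 to 10 RPKM, 7.32% were higher and 21.0% lower, whereas among the 1583 genes of 50 RPKM or more 17.6% were higher and 3.16% lower. The abundant genes that rose did so by little, with a median log2 fold change of 0.25, and none at or above 50 RPKM changed 2-fold. Reads per base of gene were at most 1.91 as a mean of the libraries among genes of 500 bases or more. How duplicate reads were handled is unknown here, and whether this ceiling lowers the fold changes of abundant genes was not tested. When the dependence of each library on reads per base was removed, the share of higher genes among the calls was 53.03%.

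The 15 largest rises and 15 largest falls were taken only from genes whose groups did not overlap, so that the gap between the groups is no result for them. Among the rises, P2ry2, a cell-surface receptor for extracellular ATP and UTP, measured 1.389, 1.333 and 1.397 RPKM in EV and 9.77, 9.28 and 11.1 in WT (log2 fold change 2.49 ± 0.14, adjusted p = 3.28e-10). Rgcc, a regulator of the cell cycle, had 1.84, 1.28 and 2.02 RPKM in EV and 12.9, 13.5 and 23.2 in WT (2.90 ± 0.27, adjusted p = 2.48e-07). Rgcc was highest in WT replicate 3. Rasl11a, a small GTPase of the Ras family, went from 6.09, 4.71 and 5.79 RPKM to 23.7, 24.6 and 33.9 (2.20 ± 0.24, adjusted p = 1.62e-06). Ica1, a vesicle-trafficking protein, went from 1.83, 2.17 and 1.84 RPKM to 9.63, 9.20 and 11.4 (2.11 ± 0.13, adjusted p = 6.41e-10). WT replicate 3 was the highest library for both.

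Several more of these rises were receptors. Il15ra, the alpha chain of the interleukin-15 receptor, was at 1.95, 1.397 and 1.73 RPKM in EV and 7.41, 9.27 and 9.17 in WT (2.06 ± 0.17). Fzd9, a Wnt receptor, was at 1.56, 1.85 and 1.46 RPKM in EV and 7.41, 6.70 and 9.94 in WT (1.99 ± 0.18). Adora2b, a receptor for adenosine, was at 0.640, 0.902 and 1.43 RPKM in EV and 4.63, 4.67 and 6.29 in WT (1.96 ± 0.20). WT replicate 3 was the highest library for Fzd9 and Adora2b, but not for Il15ra. The enzymes among them were Dgat2, which makes triglyceride, with 4.49, 6.34 and 4.27 RPKM in EV and 18.7, 16.8 and 19.3 in WT (1.78 ± 0.13), and Pomgnt2, which extends O-mannose glycans, with 7.08, 6.81 and 6.07 RPKM in EV and 21.6, 22.3 and 25.3 in WT (1.72 ± 0.12). Dusp2, a phosphatase of MAP kinases, rose from 5.99, 5.92 and 4.25 RPKM to 20.9, 18.2 and 18.5 (1.76 ± 0.15, adjusted p = 5.95e-08). Ankrd6, a Wnt pathway protein (2.11 ± 0.18), Smtnl2 (2.02 ± 0.23), Reep6, a membrane protein of the endoplasmic reticulum (1.90 ± 0.24), and Fam212a (1.76 ± 0.20) were also among the 15 largest rises. The remaining and largest of the 15 was Esr1 (4.01 ± 0.14), which reports the construct's own sequence, as given above.

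Ccng2, cyclin G2, an atypical cyclin linked to growth arrest, had the largest fall, from 29.0, 20.3 and 28.2 RPKM in EV to 6.55, 6.26 and 4.81 in WT (-2.04 ± 0.16, adjusted p = 2.40e-08). The secreted proteases Adamts7 and Adamts4 followed. Adamts7 was at 7.31, 8.33 and 6.43 RPKM in EV and 1.66, 1.98 and 1.08 in WT (-1.94 ± 0.20), and Adamts4, which cleaves aggrecan, at 4.12, 5.61 and 3.36 RPKM in EV and 0.880, 1.15 and 0.497 in WT (-1.86 ± 0.21). WT replicate 3 was the lowest library for all 3 genes. Wnt9a, a Wnt ligand, was at 2.64, 2.06 and 2.58 RPKM in EV and 0.600, 0.483 and 0.552 in WT (-1.48 ± 0.16). Arntl, which encodes the clock factor BMAL1, was at 6.61, 7.14 and 5.99 RPKM in EV and 2.31, 2.36 and 1.80 in WT (-1.42 ± 0.13, adjusted p = 2.01e-07).

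Enzymes of sulphur and glycan metabolism were also in this group. Suox, sulphite oxidase, fell from 10.6, 8.12 and 11.3 RPKM to 3.55, 3.16 and 3.34 (-1.43 ± 0.17), and St8sia2, which builds polysialic acid, from 6.40, 10.4 and 6.41 RPKM to 3.53, 2.27 and 2.06 (-1.39 ± 0.23). Dnajb5, a co-chaperone of the HSP40 family, fell from 5.66, 6.87 and 6.20 RPKM to 2.76, 2.05 and 1.06 (-1.52 ± 0.19), with WT replicate 3 the lowest. The rest of the 15 largest falls were Fam214b (-1.85 ± 0.20), Nynrin (-1.56 ± 0.26), the proteoglycan Gpc2 (-1.43 ± 0.18), Narf, a prelamin-binding protein (-1.43 ± 0.14), the lipid-raft protein Rftn2 (-1.41 ± 0.13), Nrep (-1.38 ± 0.23) and Arhgef19 (-1.37 ± 0.27). None of the 30 largest changes, Esr1 included, lost its call under the alternatives run. Each alternative left out libraries, or altered the scaling, the filter or the fit. The genes were chosen for large, called changes and groups apart in these same data. That their calls held was therefore largely set by the choice.

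**Figure D2:**
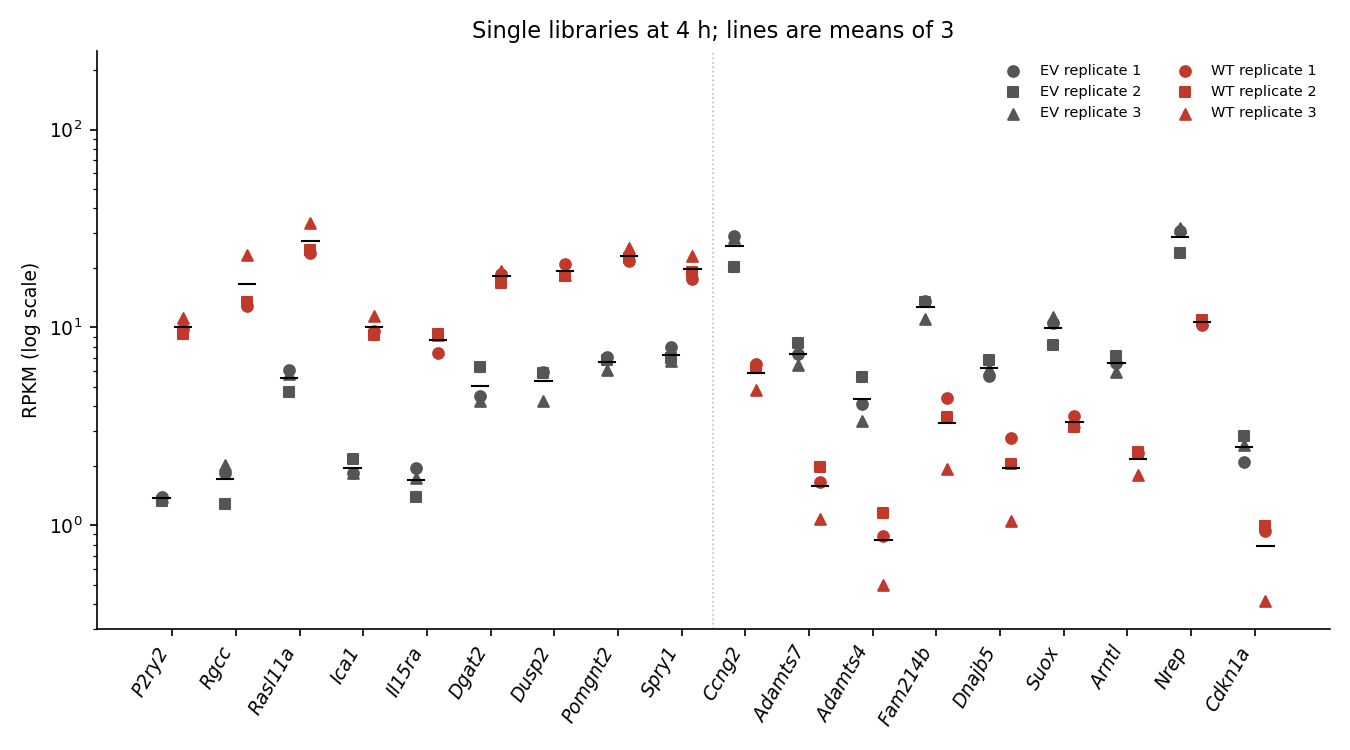
RPKM (vertical, log scale) of 9 genes that rose and 9 that fell, with 1 point for each of the 3 EV (grey) and 3 WT (red) libraries at 4 h, the marker shape giving the replicate and the line the mean of 3. The 3 WT points lie above all EV points for the genes left of the dotted line, from P2ry2 to Spry1, and below them for the genes right of it, from Ccng2 to Cdkn1a; for all but Spry1 and Cdkn1a this gap was a condition of their choice.

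Since Myc with Max prefers CACGTG, stretches of 30 bases around this motif are shown for the 8 higher and 4 lower named genes with the smallest adjusted p among those that have it upstream of a start site. The letters are from RefSeq promoter windows on GRCm38.p6 (250 bases before to 50 after a start), not on mm9, the build named in the submitters' notes, and the capitals mark the motif, which reads the same on both strands. Each is written 5′ to 3′ on the strand of its gene.
P2ry2: ggcgcttccaggCACGTGggaccctgcgcc
Ica1: gaacgctatggaCACGTGgaacacctgcta
Dusp2: cagccagagtccCACGTGaagccgcggggg
Fzd9: cgctccgggacaCACGTGggcggccgagag
Slc16a1: gcggcgccgggtCACGTGgcgggaaggggg
Eef2k: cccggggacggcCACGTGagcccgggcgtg
Timm9: cctacattttccCACGTGgtaacgaatctg
Bhlhe41: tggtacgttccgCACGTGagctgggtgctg
Wnt9a: ttcccaccgcgcCACGTGcccagccctccc
Hsd17b7: ggacccttgtgtCACGTGgctccgcccctc
Nupr1: gcgagagctttcCACGTGgaaaaacacagc
Mcoln1, upstream motif: ggtcgcgcttgtCACGTGttcagttcaggc
Mcoln1, downstream motif: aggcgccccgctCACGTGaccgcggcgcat

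The stretches of the higher genes lie at chr7:101011999-101012028 (P2ry2, minus strand), chr6:8778506-8778535 (Ica1, minus), chr2:127336038-127336067 (Dusp2, plus), chr5:135251118-135251147 (Fzd9, minus), chr3:104638452-104638481 (Slc16a1, plus), chr7:120842788-120842817 (Eef2k, plus), chr12:71136716-71136745 (Timm9, minus) and chr6:145865556-145865585 (Bhlhe41, minus). Those of the lower genes lie at chr11:59306690-59306719 (Wnt9a, plus), chr1:169969331-169969360 (Hsd17b7, minus), chr7:126625678-126625707 (Nupr1, minus), and chr8:3500436-3500465 and chr8:3500462-3500491 (Mcoln1, plus). The motif ended 12 bases before the start in P2ry2 and 222 bases before it in Wnt9a. Of the 179 named genes 151 had a window, and 31 of these had the motif in at least 1 window. Among all 27025 genes with windows, 8.09% had it in at least 1 window, and 7.15% of the 32851 windows held it. Only 9508 of these genes were tested. Median GC was 52.7% over all windows, but 60.7% over those of tested genes not called. The share over all genes is therefore no background for the named genes. A comparison of higher, lower and uncalled genes was void, because windows were found for 80.5%, 79.1% and 76.7% of them, below 80% for the latter groups. A match describes letters only, and no binding data were used.

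Among Myc's own partners, Max was at 39.5, 35.1 and 37.0 RPKM in EV and 47.3, 48.2 and 58.1 in WT (0.45 ± 0.09, adjusted p = 0.000894), higher in all 3 WT libraries. Mxi1, a repressor that pairs with Max, was at 8.58, 7.28 and 9.59 RPKM in EV and 14.4, 14.4 and 16.5 in WT (0.80 ± 0.12, adjusted p = 4.65e-05). The rest of the network moved in both directions. Mga, a large Max partner, and Mlxip, a glucose-sensing relative, rose by 0.28 and 0.60, while the repressors Mxd1 and Mxd3 fell by 0.75 and 0.69. Mycl had a log2 fold change of -0.45 (adjusted p = 0.0457) at a mean of 1.38 ± 0.0981 RPKM (SD, n = 3) in EV, and its adjusted p went above 0.05 in 13 of the 18 alternatives, among them the omission of any library but WT replicate 3. In all, 4 of the 12 tested members were higher and 4 lower; without EV replicate 2, without EV replicate 3, or without both end libraries, 2 were lower, as with median centring. Mnt (0.23), Zbtb17, the Myc-binding factor Miz1 (0.23), Mlx (-0.01) and Mxd4 (-0.15) did not pass.

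Genes of ribosome production rose together. Counts of this list and of those below stand beside 11.6% higher and 14.4% lower over all tested genes. Of 84 tested ribosome assembly factors, 55 were higher and none was lower, with a median log2 fold change of 0.25. Rrp9, a protein of the U3 snoRNP, was at 63.5, 73.4 and 61.5 RPKM in EV and at 101, 92.3 and 98.0 in WT (0.56 ± 0.07, adjusted p = 1.49e-05). Rrp1b, a nucleolar protein, was at 31.7, 35.7 and 32.2 RPKM in EV and at 52.9, 52.0 and 51.2 in WT (0.64 ± 0.06). The shifts were small beside those above but larger than the spread between replicates, and the subunits of the small-subunit processome Heatr1 (0.34 ± 0.05) and Wdr43 (0.32 ± 0.05) rose likewise. Leaving out any single library, or both end libraries, kept at least 42 of the list's genes higher and none lower. In a fit of only the 6 libraries compared, 26 were higher and none lower.

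RNA polymerase I, which makes ribosomal RNA, had 9 of 15 members higher and none lower (median 0.26). Polr1b, its second-largest subunit, was at 38.6, 43.9 and 38.8 RPKM in EV and at 67.5, 63.9 and 72.1 in WT (0.74 ± 0.07, adjusted p = 1.74e-07). Polr1e, a further subunit, had 16.26, 17.67 and 15.95 RPKM in EV and 26.1, 26.6 and 30.5 in WT (0.72 ± 0.08). Taf1c, a part of the promoter selectivity factor SL1, rose by 0.81 ± 0.12 and the largest subunit Polr1a by 0.26 ± 0.05. Without both end libraries 7 members were higher and 1 lower.

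RNA polymerase III, which makes tRNA and 5S RNA, had 5 of 22 members higher and 1 lower (median 0.14). Polr3g, a subunit of the enzyme, was at 19.4, 14.3 and 19.7 RPKM in EV and at 32.3, 31.7 and 42.3 in WT (0.98 ± 0.16, adjusted p = 0.000157). Polr3e (0.39) and the TFIIIC subunit Gtf3c4 (0.33) rose by less. Gtf3c5, another TFIIIC subunit, was lower (-0.45 ± 0.14, adjusted p = 0.0248), a call lost without WT replicate 3 (adjusted p = 0.198), without EV replicate 2 (0.101) and without EV replicate 3 (0.0612). Without EV replicate 1 the list had 2 lower members.

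Cytosolic ribosomal proteins were abundant and moved little. Of 52 tested, 13 were higher and none lower, with a median of 0.12 and a range of -0.09 to 0.24, and 35 of them stood above 1 read per base. Rpsa was at 77.5, 79.7 and 76.3 RPKM in EV and 85.3, 88.5 and 89.5 in WT (0.17 ± 0.05), and Rpl32 (0.19), Rpl4 (0.16) and Rps25 (0.19) had like values. The count hung on single libraries: 1 was higher without WT replicate 3, 8 without WT replicate 2, 2 without EV replicate 1 or 3 and 25 without EV replicate 2, 3 once the dependence on reads per base was removed, and 2 with quantile normalisation or voom. Many of these genes have processed copies in the genome whose reads cannot be told apart.

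Translation factors and tRNA synthetases had 15 of 48 members higher and 2 lower (median 0.13). Eef2k, the kinase that inhibits elongation factor 2, changed most, from 13.7, 14.7 and 12.8 RPKM in EV to 26.4, 23.9 and 24.4 in WT (0.84 ± 0.12, adjusted p = 2.99e-05). Farsa, a subunit of phenylalanyl-tRNA synthetase (0.35), and the initiation factors Eif3g (0.24) and Eif2b1 (0.39) also rose. Cars and Qars, the synthetases for cysteine and glutamine, were lower (-0.34 and -0.17). Both of those calls were lost without WT replicate 3 (adjusted p = 0.0587 and 0.163) and without EV replicate 2 (0.0509 and 0.0832), that of Qars also without EV replicate 3 (0.0654), and without WT replicate 3 only 6 members of the list were higher.

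Nucleotide and one-carbon metabolism had 21 of 40 members higher and none lower (median 0.21). Ppat, the first enzyme of purine synthesis, was at 36.2, 30.6 and 35.4 RPKM in EV and 46.7, 51.4 and 60.6 in WT (0.62 ± 0.10). Shmt1, which feeds the folate cycle from serine, had 32.9, 33.2 and 31.9 RPKM in EV and 43.3, 44.2 and 52.2 in WT (0.50 ± 0.09). WT replicate 3 was highest for both, and the groups did not overlap, as for most called genes. The folate carrier Slc19a1 (0.45 ± 0.08) and the CTP synthase Ctps (0.28 ± 0.05) rose as well. The count was 13 without WT replicate 3, and 20 with 1 lower without WT replicate 2.

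Counts of the mitochondrial lists leaned on WT replicate 3. Mitochondrial import and prohibitins had 12 of 28 higher and none lower (median 0.18), the mitochondrial ribosome 12 of 43 (0.18) and the respiratory chain with ATP synthase 6 of 37 (0.12). The last of these shares, 16.2%, was near the 11.6% over all tested genes. Timm9, an import chaperone of the intermembrane space, was at 17.6, 16.2 and 16.4 RPKM in EV and 23.6, 26.8 and 24.6 in WT (0.56 ± 0.09). Tomm34 (0.45), the prohibitin Phb2 (0.35) and Chchd4 (0.52), which oxidises imported proteins, rose too. In the mitochondrial ribosome Mrpl22 was at 37.5, 27.9 and 39.6 RPKM in EV and 48.2, 60.6 and 67.6 in WT (0.74 ± 0.13), with Mrps15, Mrps30 and Mrps9 rising by 0.45, 0.43 and 0.41. Without WT replicate 3 the counts were 7 for import, 4 for the ribosome and 1 for the respiratory chain, and the median of the ribosome list was 0.07. Without EV replicate 2 the mitochondrial ribosome had 7 higher; the respiratory chain list had 10 higher and 1 lower without WT replicate 1, and 1 lower without EV replicate 1 or WT replicate 2. With median centring the respiratory chain had 12 higher, and with voom 3. Of its named members Cox10, an enzyme of haem A synthesis, rose by 0.32 ± 0.08. The values for Ndufaf4 (0.72), Atp5c1 (0.23) and Ndufa4 (0.24) had adjusted p-values of 0.0524, 0.0655 and 0.140 without WT replicate 3, and that of Ndufa4 was 0.0889 without EV replicate 2.

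Of 32 chaperone genes 11 were higher and 4 lower (median 0.13). Cct8, a subunit of the chaperonin that folds actin and tubulin (0.19), the HSP90 co-chaperone Fkbp4 (0.23), the ATPase Ruvbl1 (0.34) and the ribosome-bound Dnajc2 (0.32) rose. The stress-induced Hspa1b was at 6.48, 6.51 and 7.43 RPKM in EV and 3.98, 3.14 and 4.31 in WT (-0.77 ± 0.13), although reads of its near-identical copy could not be told apart. Dnajb1, its HSP40 partner, fell by 0.41 ± 0.08. Higher members numbered 5 without WT replicate 3 or EV replicate 3 6 without EV replicate 1, and 5 with quantile normalisation or the correction for reads per base.

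**Figure D3:**
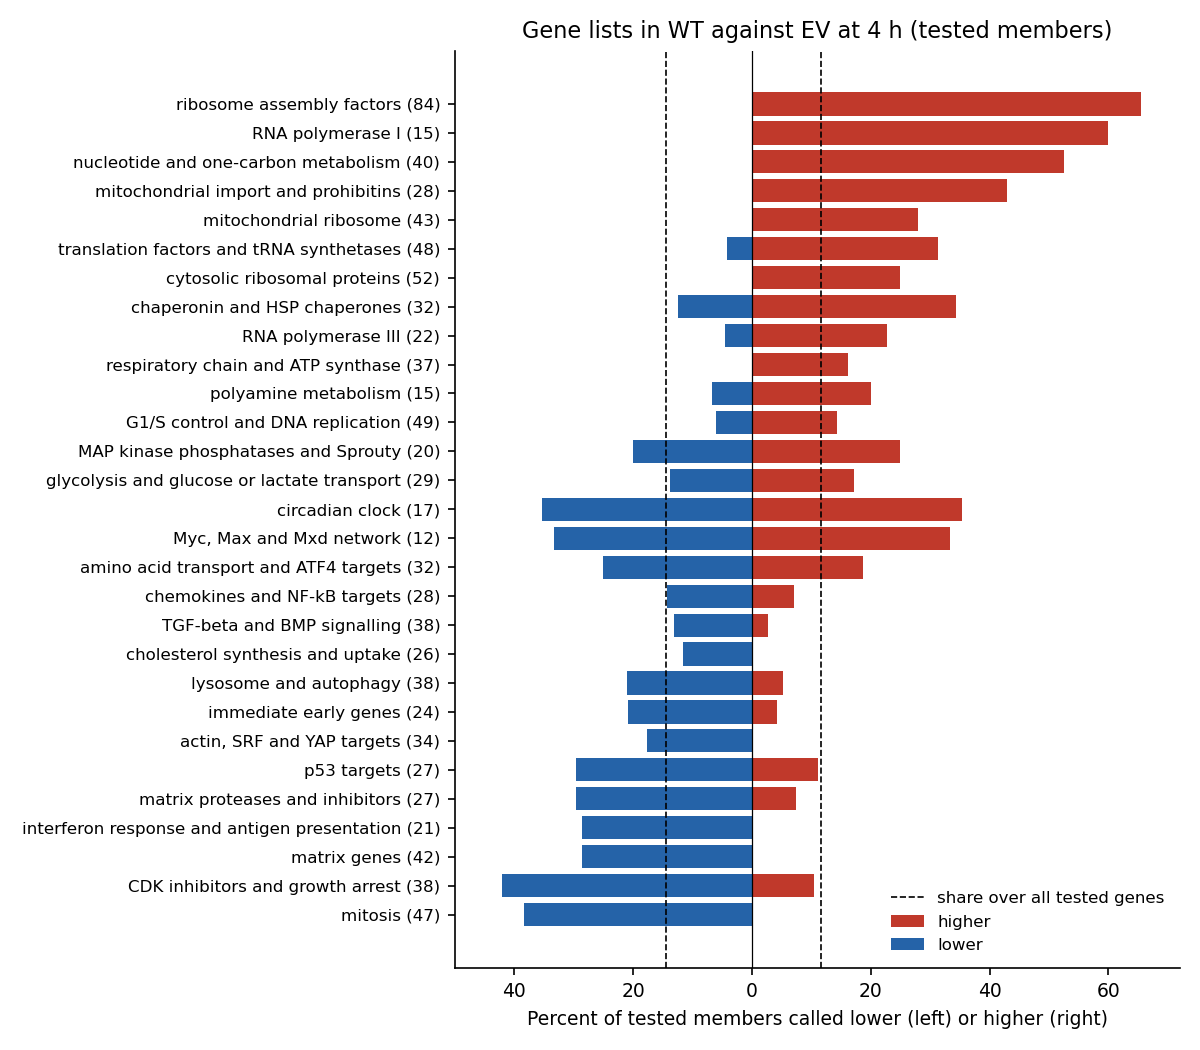
Percent of the tested members of each gene list called higher (red, to the right) or lower (blue, to the left) in WT at 4 h, with the number tested in brackets. The dashed lines mark 11.6% and 14.4%, the shares over all tested genes; ribosome assembly factors are at the top with 65.5% higher, and the TGF-beta list turns from 5 lower and 1 higher to 2 lower and 4 higher with median centring.

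In metabolism, glycolysis with glucose and lactate transport had 5 of 29 genes higher and 4 lower. These shares, 17.2% and 13.8%, were near the 11.6% and 14.4% over all tested genes. Slc16a1, the lactate carrier MCT1, was at 56.6, 53.2 and 56.5 RPKM in EV and 69.5, 76.0 and 84.8 in WT (0.46 ± 0.06, adjusted p = 2.54e-05). Pfkfb3, which makes the activator of phosphofructokinase, rose by 0.70 ± 0.18, whereas its relative Pfkfb4 fell by 0.49 ± 0.09. Of the kinases that switch off pyruvate dehydrogenase, Pdk4 was at 17.40, 13.20 and 16.97 RPKM in EV and 7.91, 6.24 and 10.0 in WT (-0.95 ± 0.18), and Pdk1 was higher (0.41 ± 0.12). The calls of Pdk1 and of Ldha, lactate dehydrogenase (0.20), were lost without WT replicate 3 (adjusted p = 0.0843 and 0.0614), Pdk1 also without EV replicate 2 (0.0803) and Ldha without EV replicate 1 (0.0705), and 3 members were then higher without WT replicate 3. Of 15 polyamine genes 3 were higher and 1 lower, or 20% and 6.67%, beside 11.6% and 14.4% over all tested genes. Odc1, the first enzyme of the pathway and a classical Myc target, was at 87.3, 91.9 and 86.8 RPKM in EV and 102, 101 and 109 in WT (0.23 ± 0.05). Sms (0.38) and Amd1 (0.27), which also build polyamines, were higher and the spermine oxidase Smox, which degrades them, was lower (-0.63 ± 0.15). Without WT replicate 3 the adjusted p of Amd1 was 0.0639, without both end libraries 1 member was higher, and without WT replicate 1 there were 5.

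Amino acid transport and ATF4 targets moved in both directions, with 6 of 32 higher and 8 lower. These shares were 18.75% and 25%, against 11.6% and 14.4% over all tested genes. Slc25a33, a mitochondrial carrier of pyrimidine nucleotides, was at 8.44, 9.27 and 9.58 RPKM in EV and 25.1, 21.8 and 22.7 in WT (1.30 ± 0.10, adjusted p = 1.92e-08), and the secreted stanniocalcin Stc2 rose by 0.82 ± 0.17. The lower members included Ddit4, Ddit3, Nupr1 and Fgf21. Ddit4, an inhibitor of mTORC1, was at 38.9, 47.9 and 45.1 RPKM in EV and 26.8, 25.6 and 17.4 in WT (-0.92 ± 0.22). Ddit3, the factor CHOP, fell by 0.44 ± 0.08, the stress protein Nupr1 by 0.31 ± 0.06 and the hormone gene Fgf21 by 0.81 ± 0.20. Lower members numbered 5 without WT replicate 3.

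Of 49 genes of G1/S control and replication, 7 were higher and 3 lower (median 0.06). The higher share, 14.3%, was near the 11.6% over all tested genes, and the lower, 6.12%, was below the 14.4%. Those higher included E2f3 (0.24), Skp2, which marks CDK inhibitors for degradation (0.25), Cdk6 (0.32) and Ccne2, cyclin E2 (0.58), and those lower included Rbl1, the pocket protein p107 (-0.52), and the repressor E2f7 (-0.74). Ccne2 was at 12.4, 7.75 and 11.3 RPKM in EV and 12.2, 15.8 and 19.5 in WT, so that the groups overlapped, and its adjusted p was 0.0963 without WT replicate 3 and 0.0915 without EV replicate 2. That of Cdk6 was 0.0616 without EV replicate 1. The direction of the list's majority turned without WT replicate 3 (4 higher, 5 lower) and without both end libraries (3 and 5), and without EV replicate 1 there were 4 higher.

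Of 47 mitosis genes none was higher and 18 were lower, with a median of -0.15. Kif22, a chromosome-arm kinesin, was at 48.1, 52.8 and 53.7 RPKM in EV and 38.8, 31.8 and 25.5 in WT (-0.70 ± 0.14, adjusted p = 0.000806). Cenpe, a kinetochore motor, was at 48.5, 55.7 and 54.0 RPKM in EV and 41.4, 35.8 and 32.4 in WT (-0.53 ± 0.11). The spindle proteins Dlgap5 (-0.53 ± 0.08) and Aspm (-0.45 ± 0.09) were lower too. The groups did not overlap for any of these genes, as for most called genes. Lower genes numbered 15 without WT replicate 3, 11 without EV replicate 3 and 16, with 1 higher, without both end libraries; with median centring 13 were lower and 1 higher.

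CDK inhibitors and growth arrest genes had 16 of 38 lower and 4 higher (median -0.15). Besides Ccng2, Gadd45a, a stress-induced arrest gene, was at 42.4, 42.7 and 39.8 RPKM in EV and 26.8, 23.3 and 25.3 in WT (-0.72 ± 0.09, adjusted p = 6.27e-06). Sesn3, an antioxidant regulator of mTORC1, was at 14.7, 16.7 and 16.1 RPKM in EV and 10.1, 8.73 and 7.27 in WT (-0.84 ± 0.11). Cdkn2c, the inhibitor p18, fell by 0.59 ± 0.10. The members that rose included the transcription factors Klf9 (0.70 ± 0.12) and Cebpa (1.04 ± 0.18), the latter from 2.20, 2.19 and 1.47 RPKM to 3.91, 4.33 and 5.36. Lower members numbered at least 13 without any single library and 11 without both end libraries, and higher members 2 without WT replicate 2 or 3 or any EV replicate.

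Of 27 tested p53 targets 8 were lower and 3 higher (median -0.06). The higher share, 11.1%, was near the 11.6% over all tested genes, and the lower, 29.6%, was above the 14.4%. Cdkn1a, the CDK inhibitor p21, was at 2.09, 2.82 and 2.55 RPKM in EV and 0.941, 0.995 and 0.413 in WT (-1.25 ± 0.26, adjusted p = 0.00141), low in both groups and lowest in WT replicate 3. The death receptor Tnfrsf10b fell by 0.45 ± 0.07, the antiproliferative Btg2 by 0.92 ± 0.19 and Mdm2, which degrades p53, by 0.24 ± 0.06. Aen, a nuclease, and Xpc, a DNA repair factor, rose by 0.39 and 0.53. Without WT replicate 3 or without EV replicate 3 there were 5 lower members, with quantile normalisation or the correction for reads per base 4, and without EV replicate 2 there were 5 higher.

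Among signalling genes, 5 of 24 immediate early genes were lower and 1 higher (median -0.21). The lower share, 20.8%, was not far above the 14.4% over all tested genes, and the higher, 4.17%, was below the 11.6%. Arc was at 22.7, 21.4 and 19.6 RPKM in EV and 12.9, 12.8 and 7.06 in WT (-0.97 ± 0.20), and Zfp36, which destabilises cytokine mRNA, at 18.3, 12.7 and 17.6 RPKM in EV and 10.7, 9.09 and 5.77 in WT (-0.91 ± 0.17). WT replicate 3 was lowest in both. Fosb, an AP-1 subunit, fell by 0.71 ± 0.17 and Mafk, a small bZIP factor, rose by 0.48 ± 0.08. Ier3 was lower (-0.35), with adjusted p-values of 0.142 without WT replicate 3, 0.0939 without EV replicate 1 and 0.0686 without EV replicate 3. Leaving out WT replicate 3 or EV replicate 3 left 3 lower members of the list.

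MAP kinase phosphatases and Sprouty genes, which damp growth factor signals, had 5 of 20 higher and 4 lower. These shares, 25% and 20%, stand beside 11.6% and 14.4% over all tested genes, in a short list. Spry1 was at 7.98, 6.98 and 6.79 RPKM in EV and 17.5, 19.1 and 22.9 in WT (1.39 ± 0.10, adjusted p = 1.83e-08). Dusp9 rose from 0.999, 0.688 and 0.718 RPKM to 2.21, 2.38 and 5.43 (1.47 ± 0.24), highest in WT replicate 3, and Dusp3 by 0.63 ± 0.10. Spred3, a Sprouty relative, was at 4.06, 4.95 and 4.402 RPKM in EV and 2.14, 2.36 and 1.07 in WT (-1.12 ± 0.18), and the ERK-responsive factor Etv5 fell by 0.59 ± 0.10.

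Interferon response and antigen presentation had 6 of 21 tested members lower and none higher (median -0.14). Stat2, which carries the type I interferon signal, was at 3.41, 5.26 and 4.50 RPKM in EV and 2.39, 2.19 and 1.18 in WT (-1.04 ± 0.19). Ddx58, the RNA sensor RIG-I, was at 5.81, 4.38 and 4.64 RPKM in EV and 2.58, 2.52 and 2.80 in WT (-0.79 ± 0.11, adjusted p = 3.87e-05). Irf1 fell by 0.35 ± 0.07, and Parp9 was lower (-0.54), with an adjusted p of 0.0700 without EV replicate 1. Without EV replicate 1 there were 3 lower members, and without WT replicate 1 there were 5 with 1 higher. With quantile normalisation or the correction for reads per base 4 were lower and 1 higher.

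Chemokines and NF-kB targets had 2 of 28 higher and 4 lower. These shares, 7.14% and 14.3%, were not above the 11.6% and 14.4% over all tested genes. Ccl7, a monocyte attractant, was at 13.6, 8.93 and 9.71 RPKM in EV and 17.6, 17.8 and 23.8 in WT (0.86 ± 0.17), and Tnfaip3, the NF-kB inhibitor A20, fell from 34.3, 37.7 and 31.9 RPKM to 22.91, 24.35 and 17.02 (-0.69 ± 0.14). The values of Cxcl1 (0.48), Il11 (-0.57), Nfkbiz (-0.34) and Tnfaip2 (-0.50) were less stable, with adjusted p-values of 0.0956, 0.114, 0.175 and 0.0565 without WT replicate 3. Without EV replicate 2 they were 0.280, 0.0982, 0.0707 and 0.0600; Cxcl1, Il11 and Tnfaip2 were at 0.139, 0.112 and 0.0751 without WT replicate 2, Il11 and Nfkbiz at 0.139 and 0.0961 without EV replicate 1, and Nfkbiz at 0.0565 without WT replicate 1. The list kept 1 higher and 1 lower member without WT replicate 3 or without EV replicate 2, 1 and 2 without WT replicate 2, and 2 of each without EV replicate 1 or with median centring. With quantile normalisation or the correction for reads per base it had 1 higher and 3 lower.

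Matrix genes had 12 of 42 members lower and none higher (median -0.14), and this count depended on WT replicate 3: without it 4 were lower, without EV replicate 2 there were 7, and without both end libraries 3 were lower and 1 higher. Col7a1, the anchoring fibril collagen, was at 31.5, 54.6 and 31.9 RPKM in EV and 21.3, 20.5 and 11.1 in WT (-1.14 ± 0.23), with EV replicate 2 the highest and WT replicate 3 the lowest. Col5a3 was at 3.71, 5.61 and 2.59 RPKM in EV and 1.57, 1.41 and 0.811 in WT (-1.31 ± 0.27), in the same order. Mfap5, a microfibril protein, was at 1.91, 1.25 and 2.19 RPKM in EV and 0.605, 0.284 and 0.289 in WT (-1.35 ± 0.24), and the collagen cross-linker Loxl2 fell by 0.48 ± 0.12.

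Matrix proteases and their inhibitors had 8 of 27 lower and 2 higher (median -0.29). Mmp11, stromelysin 3, was at 36.5, 34.1 and 33.1 RPKM in EV and 20.8, 18.6 and 15.5 in WT (-0.91 ± 0.12), and the membrane-bound Mmp14 fell from 77.6, 82.6 and 74.2 RPKM to 63.1, 59.5 and 46.0 (-0.48 ± 0.10). Within the Adamts family, Adamts7 and Adamts4 fell as given above, while Adamts1 was at 57.3, 59.0 and 56.2 RPKM in EV and 75.9, 81.1 and 74.3 in WT (0.42 ± 0.06, adjusted p = 2.18e-05) and Adamts9 rose by 0.70 ± 0.14. Both directions held in the quantile-normalised and median-centred data. In the list as a whole no single library changed either count by more than 1.5 times.

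Actin, SRF and YAP targets had 6 of 34 lower and none higher, with a median of -0.03 that was 0.01 with median centring. The lower share was 17.6%, near the 14.4% over all tested genes, of which 11.6% were higher. Tgfb1i1, the focal adhesion protein Hic-5, was at 21.0, 25.9 and 22.5 RPKM in EV and 13.4, 12.5 and 6.21 in WT (-1.14 ± 0.22), and the actin-binding Lmod1 was at 3.66, 3.80 and 2.68 RPKM in EV and 1.52, 1.22 and 0.594 in WT (-1.30 ± 0.24). Smooth muscle gamma actin, Actg2, fell by 0.79 ± 0.18, and Amotl1, a regulator of YAP, by 0.36 ± 0.06.

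TGF-beta and BMP signalling had 5 of 38 lower and 1 higher (median -0.05). The lower share of 13.2% was near the 14.4% over all tested genes. With median centring 2 were lower and 4 higher, so that the list has no direction that holds across scalings. Inhba, which encodes the activin A subunit, was at 56.4, 74.1 and 60.3 RPKM in EV and 40.8, 36.5 and 20.5 in WT (-1.003 ± 0.20). Calls of Bmp1 (-0.44), Smad3 (-0.17), Smurf1 (-0.19) and Smad5 (0.21) were lost without WT replicate 3 (adjusted p = 0.0929, 0.0710, 0.179 and 0.172) and without EV replicate 2 (0.0728, 0.0730, 0.118 and 0.161). Smad3 was at 0.0824 without EV replicate 1 and 0.119 without WT replicate 2, Smurf1 at 0.0510 without WT replicate 2, and Smad5 at 0.0519 without EV replicate 3. Lower members numbered 1 without WT replicate 3, 2 without WT replicate 2 and 3 without EV replicate 1 or 2, and higher members 2 without WT replicate 1 and 0 without EV replicate 3.

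**Figure D4:**
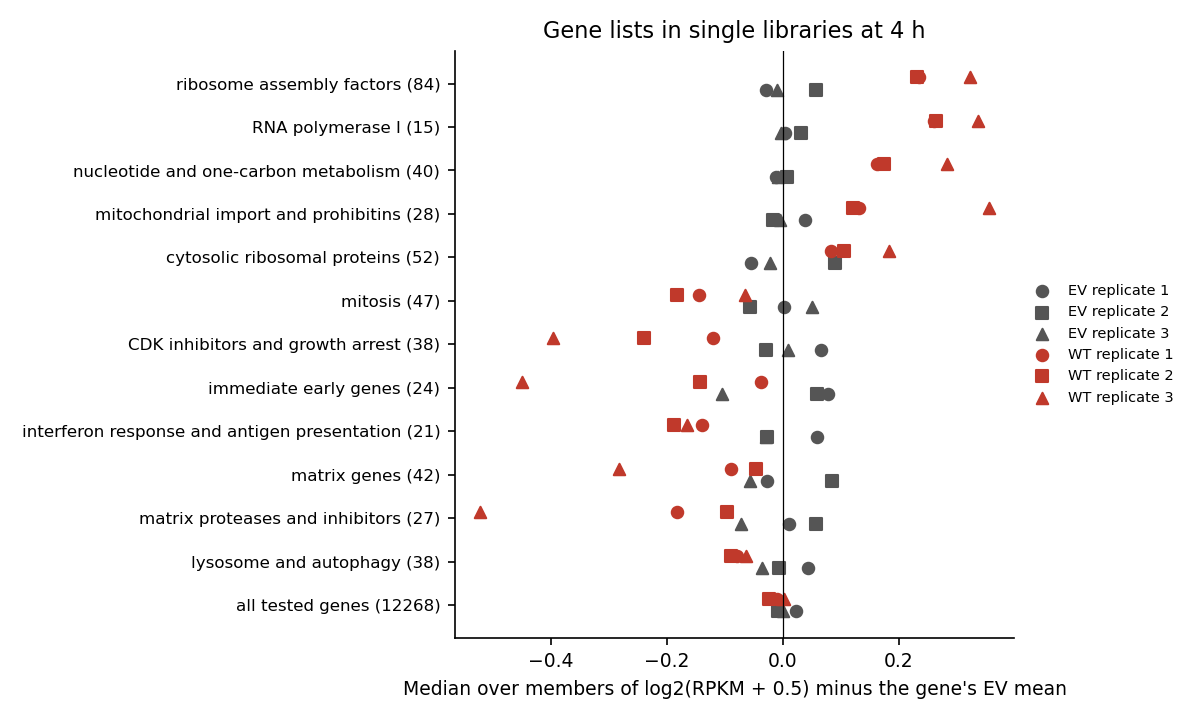
Median over the members of a gene list of log2(RPKM + 0.5) minus the gene's EV mean, for each EV (grey) and WT (red) library at 4 h, with the number of members in brackets. WT replicate 3 (triangle) is farthest from 0 in ribosome assembly (0.32), matrix proteases (-0.52) and matrix genes (-0.28), but not in mitosis genes (-0.07), while the medians over all tested genes lie between -0.02 and 0.02.

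Of 26 tested cholesterol genes 3 were lower and none higher, and without both end libraries 5 were lower. The 11.5% lower in the main fit did not exceed the 14.4% over all tested genes. Hsd17b7, an enzyme of late cholesterol synthesis, was at 17.3, 14.2 and 16.8 RPKM in EV and 8.08, 9.07 and 7.77 in WT (-0.91 ± 0.10, adjusted p = 2.07e-06). Its groups did not overlap, as for most called genes.

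Lysosome and autophagy genes had 8 of 38 lower and 2 higher (median -0.08). The lower share was 21.1% against 14.4% over all tested genes, and the higher 5.26% against 11.6%. Tfeb and Tfe3 are transcription factors that drive this programme: Tfeb was at 4.99, 4.58 and 5.34 RPKM in EV and 3.23, 2.95 and 2.52 in WT (-0.69 ± 0.14), and Tfe3 at 21.9, 22.6 and 23.5 RPKM in EV and 15.6, 15.4 and 10.6 in WT (-0.71 ± 0.15). The groups were apart for both, as for most called genes. The sialidase Neu1 (-0.60 ± 0.12) and the lysosomal ion channel Mcoln1 (-0.47 ± 0.09), whose promoter is printed above, fell as well. Gusb and Gabarapl1 were the higher members (0.26 and 0.21); without EV replicate 2 their adjusted p-values were 0.0653 and 0.185 and without EV replicate 3 they were 0.0555 and 0.0722. Without WT replicate 1 they were 0.0875 and 0.0734; for Gusb they were also 0.109 without EV replicate 1 and 0.151 without WT replicate 2, and for Gabarapl1 0.253 without WT replicate 3. With quantile normalisation neither was called.

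The circadian clock list had 6 of 17 members higher and 6 lower. Nr1d1, the repressor REV-ERB alpha, was at 10.9, 14.2 and 12.6 RPKM in EV and 28.5, 28.8 and 25.4 in WT (1.11 ± 0.13, adjusted p = 4.34e-06), opposite to its target Arntl. Bhlhe41, an E-box-binding repressor, was at 0.949, 2.00 and 0.868 RPKM in EV and 4.07, 3.10 and 3.94 in WT (1.30 ± 0.22). Cry1 rose by 0.44 ± 0.10 and Nfil3, a D-box repressor, fell by 0.57 ± 0.08. Nr1d2 was higher (0.45), with an adjusted p of 0.0570 without WT replicate 3 and 0.0508 without EV replicate 2. Without WT replicate 3 there were 3 higher and 2 lower members, without EV replicate 2 there were 3 and 4, and without EV replicate 3 there were 4 and 3.

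Of the 12 tested fibroblast markers, Twist2, a factor of mesenchymal cells, was at 17.28, 16.62 and 14.98 RPKM in EV and 36.3, 30.3 and 39.4 in WT (1.09 ± 0.13, adjusted p = 6.27e-06). The PDGF receptor genes were lower: Pdgfra was at 31.1, 29.5 and 34.0 RPKM in EV and 22.6, 18.4 and 20.3 in WT (-0.61 ± 0.13), and Pdgfrb at 32.4, 38.6 and 34.6 RPKM in EV and 28.0, 27.2 and 21.0 in WT (-0.47 ± 0.13). Pdgfrb had an adjusted p of 0.0973 without WT replicate 3 and 0.0594 without EV replicate 2. The other 9 markers were not called.

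The changes at 4 h were next set beside those at 8 h, which share no library with them. Both came from the same fit of 24 libraries, however, with a shared variance estimate for each gene. Genes of low variance were thus more easily called at both times, and the overlaps below are not those of independent calls. Of the 1429 genes higher at 4 h, 1039 (72.7%) were also called higher at 8 h, where 15.2% of all tested genes were, and these are 55.8% of the 1861 higher at 8 h. Of the 1767 lower genes, 1220 (69.0%) were lower at 8 h, against 20.1% of all tested, and these are 49.5% of the 2463 lower there. No gene called at 4 h was called in the opposite direction at 8 h. A 2-fold change was called at both times for 79 of the 96 genes higher by that much at 4 h and for 69 of the 106 lower ones.

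A test of the difference between the effects at both times called 2 of 12268 genes (0.0163%), both lower at 8 h than at 4 h, with 1395 genes at an unadjusted p under 0.05. Gcnt4, a glycosyltransferase, was at 22.0, 16.2 and 20.2 RPKM in EV and 14.12, 14.32 and 16.05 in WT at 4 h (-0.37 ± 0.10), and had a log2 fold change of -1.21 ± 0.10 at 8 h (adjusted p of the difference = 0.0357). Its change at 4 h alone had an adjusted p of 0.0583 without EV replicate 1. Smad3, a TGF-beta signal carrier, changed by -0.17 at 4 h and -0.65 at 8 h (adjusted p of the difference = 0.0357). Both calls rest on single libraries: the count was 0 without EV replicate 2 or 3 and without WT replicate 1 or 3, 1 without WT replicate 2 and 13 without EV replicate 1. Ccl7 had 0.86 at 4 h and -0.44 ± 0.17 at 8 h, and its difference had an adjusted p of 0.0734. P2ry2, Ccng2 and Polr1b had 2.49, -2.04 and 0.74 at 4 h and 3.09, -2.05 and 0.82 at 8 h, with adjusted p-values of the difference of 0.326, 0.986 and 0.694.

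**Figure D5:**
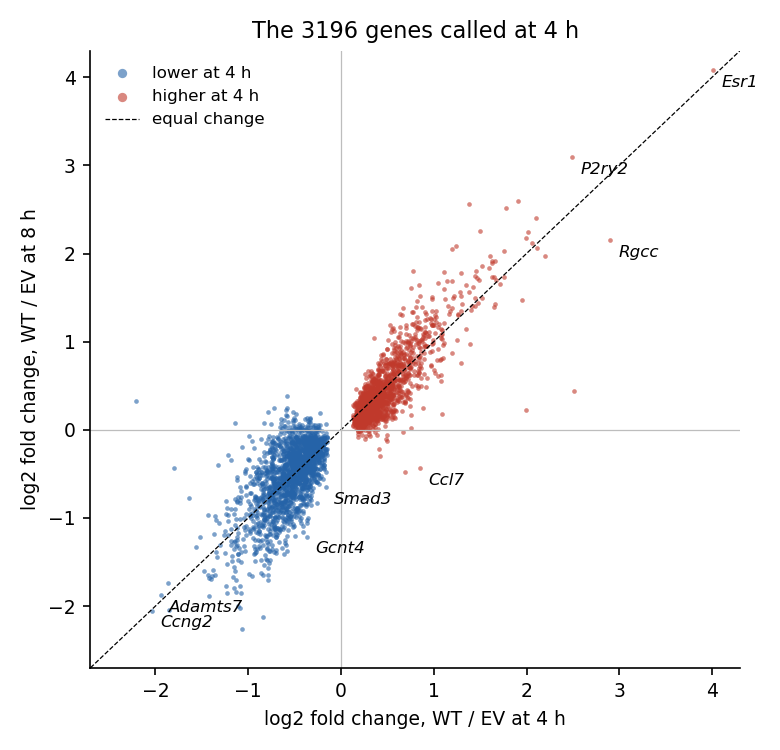
Log2 fold change of WT against EV at 8 h (vertical axis) against that at 4 h (horizontal) for the 3196 genes called at 4 h, red where higher and blue where lower, with the dashed line marking equal change. Ccng2 lies near the line (-2.04 and -2.05), P2ry2 above it (2.49 at 4 h and 3.09 at 8 h), and Gcnt4 and Smad3, the genes whose difference between times was called, lie below it; some points far from the line are microRNA genes such as Mir3474 and Mir466o.

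HEA and RA, mutant forms of MycER in the same design, were compared with the same EV libraries, so their values at 4 h are set side by side only, and WT was tested against each directly. For P2ry2 the log2 fold changes against EV were 2.49 in WT, -0.09 in HEA and -0.28 in RA, and WT exceeded HEA by 2.59 ± 0.14 (adjusted p = 3.12e-11) and RA by 2.77 ± 0.14 (8.66e-11). Polr1b had 0.74, -0.52 and -0.28, and WT exceeded HEA by 1.26 ± 0.07 and RA by 1.02 ± 0.07. P2ry2 and Polr1b were thus above EV in WT and below it or near it in the other forms. Rgcc, which rose more than P2ry2 in WT, had 2.90 in WT, 1.71 in HEA and -0.20 in RA. Ica1 had 2.11, 1.07 and -0.02, with WT above HEA by 1.04 ± 0.13, and Fzd9 had 1.99, 3.77 and -0.21, with WT below HEA by 1.78 on the log2 scale (adjusted p = 8.04e-08). Cdkn1a had -1.25, 1.96 and -0.56, and the WT minus HEA difference was -3.20 ± 0.26 (adjusted p = 5.28e-09). Adora2b had 1.96, 2.25 and 0.45, and its WT minus HEA difference of -0.29 ± 0.20 did not pass (adjusted p = 0.246). Over all tested genes 49.5% were called between WT and HEA and 34.8% between WT and RA.

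The authors' deposited table of WT against EV at 4 h lists 978 genes higher and 1148 lower at its adjusted p under 0.05, of which 939 and 1105 were called in the same direction here and none in the opposite. The other calls here, out of 1429 higher and 1767 lower, were not called in that table. Among the named genes these include Myc, Rpsa, Qars and Smad3, with adjusted p-values there of 0.0685, 0.134, 0.377 and 0.265. For P2ry2 and Ccng2, which had 2 of the largest changes, the authors' deposited table gives log2 fold changes of 2.52 and -1.86.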

How the data were processed

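RNA-seq of total RNA, made into libraries with a stranded kit, was analysed. Per the submitters' processing notes the build was mm9 and the tools featureCounts 1.4.5-p1, DESeq2, TopHat2 2.0.8 with TopHat, and SAMtools, their roles unstated. Strand setting, annotation and handling of duplicates: not given in the sources used here. Overlapping and antisense genes therefore cannot be told apart. The authors deposited RPKM per gene and library, per the file headers. Their deposited table of comparisons holds baseMean (the mean of normalised counts over the libraries compared), log2 fold changes, a test statistic (a score) and p-values, per the file headers. None of the fold changes, statistics or p-values entered a test; baseMean went only into the recovery of reads, and through it into the voom fit, the reads per base and the correction for them.

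Changes were tested with limma-trend (limma 3.58.1, R 4.3.3) on log2(RPKM + 0.5), a scale that understates changes of low genes. The 8 group means of 24 libraries were fitted together (16 residual degrees of freedom), with Benjamini-Hochberg adjustment over 12268 genes and a threshold of 0.05. Values after ± without a label are standard errors of log2 fold changes. Genes at the edge of the filter, with 1 RPKM in exactly 3 libraries, numbered 97 (median mean 0.663 RPKM over the 24 libraries). Just outside it, with 1 RPKM in exactly 2 libraries, were 112 (0.560).

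Whole reads were recovered from the steps of the RPKM values with the help of baseMean: all 362673 non-zero values (100%) came out whole to 0.01 read. They gave library totals, reads per base and an alternative fit with voom, which called 1384 genes higher and 1768 lower. Replicates differed beyond sampling noise (chi-square per degree of freedom 3.47 to 18.7). The fit was tested on simulated data, which had the same spread beyond sampling noise in every gene and library. That test cannot speak for calls that rest on the end libraries.

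Members and lists were chosen with earlier results of these data known. There were 36 lists, described by counts over all genes tested and by medians, with no test of a list. Named genes were Myc, Esr1 and the Myc network, the 15 largest rises and 15 largest falls (at least 2 RPKM in the higher group, groups apart, predicted, small RNA and multi-copy genes passed over), from every list the 4 smallest p in its majority's direction and up to 2 members against it, and the genes called between times, 179 in all; some of them are not reported here. Python 3.11.15 with pandas 2.3.3 and matplotlib 3.10.9 made the summaries and figures.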

Additional observations from a re-analysis of the deposited data

Results flagged for a closer look

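The effect of MycER WT was called different between 8 h and 4 h for 2 genes in the test of the difference itself. Neither call held without EV replicate 2 or 3, or without WT replicate 1 or 3. For Gcnt4 the log2 fold change at 8 h minus that at 4 h was -0.841, with WT at 14.8 ± 1.06 RPKM and EV at 19.4 ± 2.99 at 4 h (SD, n = 3) and at 7.47 ± 0.441 and 18.0 ± 1.04 at 8 h. For Smad3 it was -0.483, with WT at 39.2 ± 1.80 and EV at 44.0 ± 0.844 RPKM at 4 h and at 25.9 ± 1.35 and 40.9 ± 1.32 at 8 h.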

How the results depend on the processing

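No call of a named gene reversed, and 114 of the 175 named calls held in all 18 alternatives, 2 of which (correction for reads per base, omission of both end libraries) were chosen after seeing the data. A fit of only the 6 libraries, with fewer degrees of freedom, called 523 higher and 589 lower genes and lost 59 named calls. In that fit 4 mitosis genes and 3 matrix genes were lower. No cytosolic ribosomal protein and no gene of the respiratory chain list was called in it. Omission of 1 library gave 919 to 1529 higher and 1121 to 1950 lower genes, with the lowest without WT replicate 3, and omission of both end libraries 876 and 1158. Genes at least 2-fold lower numbered 188 at a pseudocount of 0.1, 70 at 1, 64 with quantile normalisation, 208 with voom and 64 to 196 without 1 library (196 without WT replicate 1, 64 without WT replicate 3). For the difference between times, the higher count of 0 became 1 with no filter and 2 with quantile normalisation, and the lower count of 2 became 22 with quantile normalisation, 1 with median centring or the correction for reads per base, 0 with no variance trend, with the replicate block or without both end libraries, and 0 to 13 without 1 library. The cause was not tested. Calls that were higher made up 44.7%, 57.3% with median centring, 53.03% with the correction for reads per base and 50.3% with quantile normalisation. Same-numbered EV and WT libraries correlated at -0.36, 0.15 and 0.33 in their deviations, so the numbers were not taken as pairs; with the replicate block 1378 genes were higher and 1688 lower, and 3 named calls were lost. At 9.82 to 11.9 M reads, 1438 tested genes had a mean under 2 RPKM, and few reads limit the precision of these.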
